A study of Mus musculus with 24 samples.

Results

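Collagen crosslinking was followed through 8 enzyme genes, the lysyl oxidases Lox, Loxl1, Loxl2, Loxl3 and Loxl4 and the lysyl hydroxylases Plod1, Plod2 and Plod3. They were taken by name from a table of 54532 mouse genes, in which each has 1 entry. All 8 passed the filter on low counts, which kept 19253 genes. RNA was sequenced from 24 pieces of mouse pancreatic tumour, 6 in each of 4 groups named PBS, GEM, IGEL and LIGEL, every one collected at day 24. PBS, buffered saline, was the control group. The labels do not spell out GEM, IGEL or LIGEL, and the series title speaks only of losartan, an angiotensin receptor blocker, given ahead of a nanocarrier for chemotherapy and immunotherapy to remodel the stroma. No agent or dose was therefore assigned to a group here. Strain, tumour model and age of the mice are not stated in the labels. They also do not say that the 6 samples of a group are 6 animals, so p-values measure the spread between these samples only, which may be technical in part.

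Lysyl hydroxylases act inside the cell. They add hydroxyl groups to lysines of procollagen chains before the triple helix forms, PLOD1 mainly in the helix and PLOD2 in the telopeptides at the chain ends, while PLOD3 also attaches sugars to hydroxylysine. Lysyl oxidases are secreted copper enzymes that oxidise lysines and hydroxylysines of collagen and elastin outside the cell, and the aldehydes they form condense into the crosslinks that stiffen a fibre. LOX and LOXL1 are made as proenzymes and are best known for fibrillar collagen and for elastic fibres, respectively. LOXL2, LOXL3 and LOXL4 carry scavenger receptor domains, and LOXL2 also acts on collagen IV of basement membranes. PLOD2, LOX and LOXL2 are known targets of hypoxia-inducible factors, and pancreatic tumours are known for a dense collagen stroma made largely by fibroblasts. In bulk tissue, fewer cells of a type and less RNA per cell cannot be told apart.

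In mm10 coordinates Loxl1 (ENSMUSG00000032334) lies at chr9:58287738-58313186 on the minus strand and Loxl2 (ENSMUSG00000034205) at chr14:69609068-69695834 on the plus strand. Loxl3 (ENSMUSG00000000693) lies at chr6:83034173-83052562, plus strand, and Loxl4 (ENSMUSG00000025185) at chr19:42593982-42612813, minus strand. Plod1 (ENSMUSG00000019055) is at chr4:147909753-147936767, minus strand, Plod2 (ENSMUSG00000032374) at chr9:92542223-92608428, plus strand, and Plod3 (ENSMUSG00000004846) at chr5:136987019-136996648, plus strand. Lox is ENSMUSG00000024529. In the mouse GENCODE annotation, 535 of the 4603 exon bases of Loxl3 overlap Htra2 on the opposite strand. For Plod3, 529 of 4519 exon bases overlap Znhit1 in the same way. No source used here says whether reads were counted by strand, so reads from these stretches cannot be assigned with certainty.

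Promoter sequences are shown because, as described below, some of the enzymes went with the collagen gene Col1a1 and others with genes of the hypoxia response. The RefSeq promoter table (GRCm38.p6) held 3 of the 8 genes, Loxl4, Plod1 and Plod3. Each sequence runs 5′ to 3′ on the gene's own strand, from 250 bases before to 50 bases after the start of the gene, and capitals mark the core of the hypoxia response element (ACGTG or GCGTG, searched on both strands).
Loxl4, chr19:42612757-42613056, minus strand: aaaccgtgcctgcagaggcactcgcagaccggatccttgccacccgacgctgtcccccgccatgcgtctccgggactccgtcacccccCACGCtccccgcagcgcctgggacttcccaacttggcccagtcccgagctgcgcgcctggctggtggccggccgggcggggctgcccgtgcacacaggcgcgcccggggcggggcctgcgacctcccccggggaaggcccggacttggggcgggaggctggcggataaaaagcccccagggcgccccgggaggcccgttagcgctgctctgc
Plod1, chr4:147936727-147937026, minus strand: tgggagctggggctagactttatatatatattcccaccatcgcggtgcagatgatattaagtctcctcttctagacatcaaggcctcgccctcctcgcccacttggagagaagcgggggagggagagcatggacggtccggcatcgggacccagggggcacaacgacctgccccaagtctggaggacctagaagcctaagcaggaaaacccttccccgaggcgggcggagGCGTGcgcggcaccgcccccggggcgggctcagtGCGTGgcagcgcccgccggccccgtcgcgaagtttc
Plod3, chr5:136986769-136987068, plus strand: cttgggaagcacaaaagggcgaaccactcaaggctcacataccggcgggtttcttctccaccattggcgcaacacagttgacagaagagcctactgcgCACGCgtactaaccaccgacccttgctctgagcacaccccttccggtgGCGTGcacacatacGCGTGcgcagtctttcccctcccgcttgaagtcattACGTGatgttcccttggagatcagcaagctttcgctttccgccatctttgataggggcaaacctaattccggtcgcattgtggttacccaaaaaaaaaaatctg
The core occurred 1 time in Loxl4, on the opposite strand, 2 times in Plod1 and 4 times in Plod3. Of 32851 mouse promoters of the same 300 bases, 43.8% held at least 1, so a match is common and describes letters only. The GC box (GGGCGG, both strands) occurred 3 times each in Loxl4 and Plod1 and 0 times in Plod3, against 35.7% of promoters with at least 1. The TATA box letters (TATAAA, both strands) occurred 1 time in Plod1 and 0 times in Loxl4 and Plod3, against 13.6% of promoters.

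Library totals lay between 27066563 and 40521434 counts. PBS replicate 5 stood apart: the 17 acinar genes, which encode digestive enzymes and other products of the normal exocrine pancreas, took 37.2% of its counts, against 0.00525 to 15.7% in the other 23 libraries. The sample titles name muscle. Of 7 skeletal muscle markers 3 passed the filter, and the summed level of the 7 was 9.37 to 23.7 CPM in 23 libraries but 272 CPM in IGEL replicate 4. All 7 fibroblast and all 8 epithelial markers passed. Apart from this, 6 libraries (3 of GEM, 1 of IGEL and 2 of LIGEL) have count columns that share the names A1, A2 and A3 in pairs, while every other column has a name of its own. The labels do not say what these names mark.

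Scaled to gene length, the mean level over the 24 libraries was 52.2 ± 13.01 CPM per kb for Loxl2 (CPM is counts per 1000000 counts, here divided by transcript length in kilobases; SD, n = 24), the highest of the 8. Plod3 followed at 33.7 ± 5.52 CPM per kb. Loxl1 (28.3 ± 18.03), Lox (26.4 ± 18.8), Plod2 (25.5 ± 6.97) and Plod1 (23.2 ± 4.64 CPM per kb) came next, with overlapping ranges of mean ± SD. Loxl3 had 18.7 ± 4.85 CPM per kb and Loxl4, the least abundant, 12.3 ± 5.17 CPM per kb. Their main substrate gene Col1a1, the alpha 1 chain of type I collagen, had 872 ± 516 CPM per kb. The members differed widely in how much they varied. Without PBS replicate 5 the highest library exceeded the lowest 18.6-fold for Loxl1 and 13.8-fold for Lox, wider than for Col1a1 (10.8-fold), but 3.89-fold for Loxl4, 2.62-fold for Loxl3, 2.24-fold for Plod2, 1.95-fold for Loxl2, 1.73-fold for Plod1 and 1.36-fold for Plod3.

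Lox, which oxidises fibrillar collagen, was the member with the lowest LIGEL level relative to PBS. Its levels ran from 57.6 to 462 CPM in PBS (median 97.5; mean 160 ± 156, SD, n = 6), from 89.7 to 247 CPM in GEM (median 141), from 33.5 to 181 CPM in IGEL (median 105) and from 38.3 to 117 CPM in LIGEL (median 80.6; mean 81.0 ± 32.4 CPM, n = 6). PBS replicate 1 alone was far above the rest, 2 of 6 LIGEL libraries lay above the PBS median and the groups overlapped. The log2 fold change of LIGEL against PBS was -0.98 ± 0.46 (SE), with an adjusted p of 0.230 in edgeR's quasi-likelihood test. Without PBS replicate 1 it was -0.29 (edgeR adjusted p = 0.700). In IGEL against PBS it was -0.57 ± 0.46 (edgeR adjusted p = 0.525) and turned to 0.12 without PBS replicate 1. GEM had nearly the same mean as PBS (161 ± 65.7 CPM), with a log2 fold change of 0.01 ± 0.45 that became 0.695 without PBS replicate 1. LIGEL was also lower than GEM by -0.99 ± 0.46 on the log2 scale (edgeR adjusted p = 0.999), and 0 of 6 LIGEL libraries lay above the GEM median.

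Loxl1, the family member tied to elastic fibres, followed the same order of groups. It had 54.4 to 303 CPM in PBS (median 78.6), 59.0 to 194 in GEM (median 99.5), 16.3 to 149 in IGEL (median 80.4) and 33.3 to 107 in LIGEL (median 68.3). PBS replicate 1 was again the highest library and IGEL replicate 1 the lowest, and all groups overlapped. LIGEL differed from PBS by -0.79 ± 0.45 on the log2 scale (edgeR adjusted p = 0.314), IGEL by -0.58 ± 0.45 (0.517) and GEM by -0.12 ± 0.45 (0.950). Without PBS replicate 1 the LIGEL difference was -0.25 (edgeR adjusted p = 0.770), the IGEL difference -0.031 and the GEM difference 0.427. Col1a1 itself went the same way, with means of 6860 ± 5638 CPM (PBS), 6430 ± 2772 (GEM), 5293 ± 2525 (IGEL) and 4319 ± 1454 (LIGEL), a LIGEL difference of -0.67 ± 0.44 (edgeR adjusted p = 0.386). Of the 7 fibroblast markers 6 were lower in LIGEL than in PBS, with a median log2 fold change of -0.89 and none called; their summed level was 3190 to 24060 CPM in PBS and 3556 to 9288 CPM in LIGEL. Their part in the levels of Lox and Loxl1 was not tested.

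Loxl2, the most abundant lysyl oxidase, went the other way. In PBS it had 43.4, 224, 245, 261, 263 and 281 CPM, the lowest being replicate 5. It ran from 203 to 343 CPM in GEM (median 288), from 237 to 396 in IGEL (median 311) and from 282 to 362 in LIGEL (median 316; mean 315 ± 30.8, SD, n = 6). All 6 LIGEL libraries lay above all 6 PBS libraries, with LIGEL replicate 5 at 281.75 CPM just above PBS replicate 2 at 281.48 CPM. Such a separation from PBS, in either direction, was seen for 1.02% of all genes in LIGEL, 0.452% in IGEL and 0.0935% in GEM, and for 0 other members in these 3 comparisons. The LIGEL difference was 0.52 ± 0.27 on the log2 scale (edgeR adjusted p = 0.265), the IGEL difference 0.50 ± 0.27 (0.361) and the GEM difference 0.37 ± 0.27 (0.804). When PBS replicate 5 was left out they were 0.31 ± 0.14 (edgeR adjusted p = 0.299), 0.29 ± 0.14 (0.418) and 0.15 ± 0.14 (0.9999).

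Loxl4, the least abundant lysyl oxidase, had 6.21, 28.2, 41.6, 42.3, 45.7 and 52.2 CPM in PBS, again lowest in replicate 5. It had 35.0 to 66.7 CPM in GEM (median 46.6), 33.5 to 110 in IGEL (median 63.5) and 37.3 to 81.7 in LIGEL (median 52.8). In IGEL 4 of the 6 libraries lay above the PBS median and 2, at 33.5 and 35.0 CPM, below it. IGEL differed from PBS by 0.87 ± 0.35 on the log2 scale (edgeR adjusted p = 0.306), LIGEL by 0.67 ± 0.35 (0.275) and GEM by 0.40 ± 0.35 (0.807). Without PBS replicate 5 the IGEL difference was 0.65 ± 0.27 (edgeR adjusted p = 0.340) and the LIGEL difference 0.45 ± 0.27 (0.438).

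Loxl3, which takes part in collagen crosslinking in cartilage and other tissues, had similar medians in the 4 groups. They were 84.7 CPM in PBS (30.7 to 100.2), 82.1 in GEM (70.4 to 119), 92.5 in IGEL (58.8 to 124) and 88.0 in LIGEL (74.3 to 120). The log2 differences from PBS of 0.23 to 0.30 came down to 0.07 to 0.14 without PBS replicate 5.

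**Figure D1:**
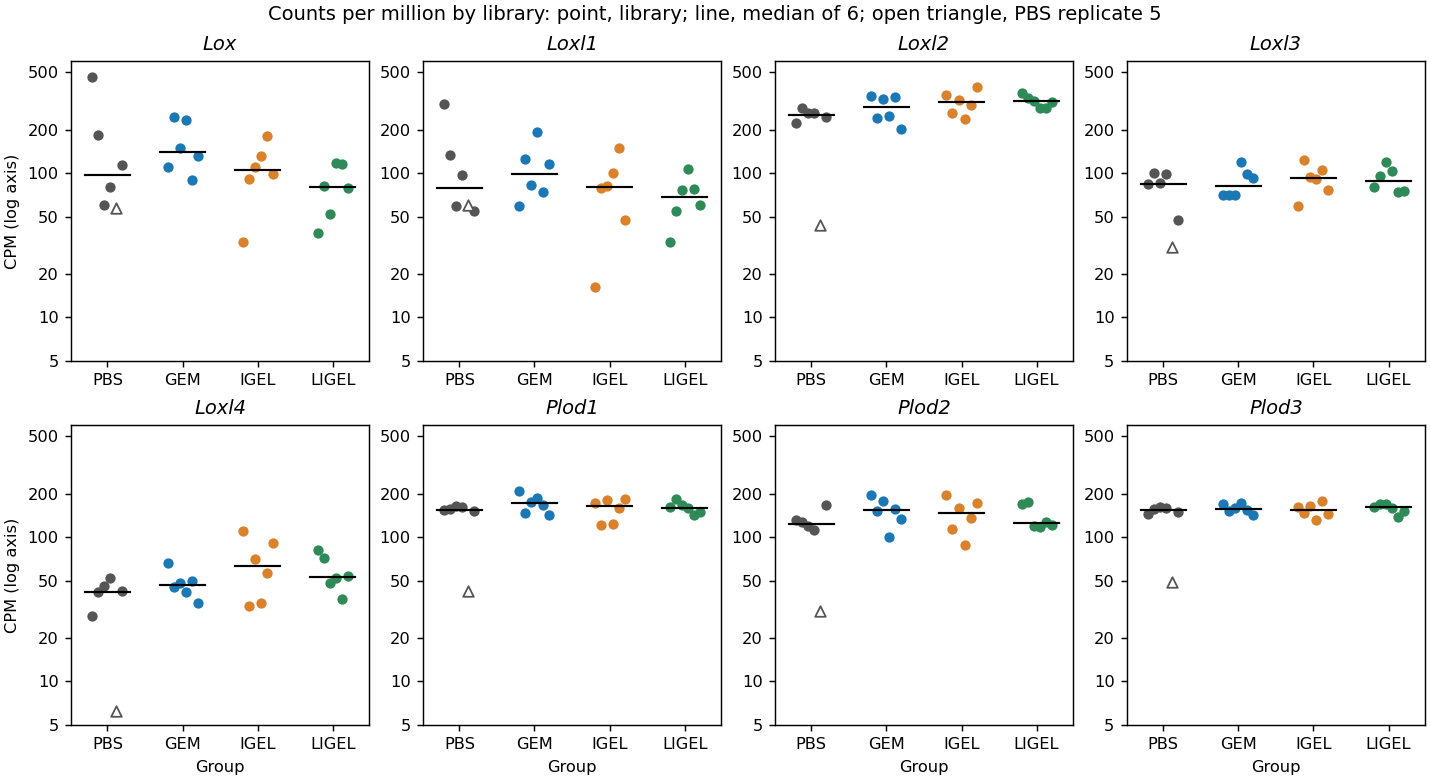
Level of each enzyme in every library, in CPM on a log axis, by group; lines are medians of 6 and the open triangle is PBS replicate 5. Lox and Loxl1 spread over more than 10-fold, Plod1 and Plod3 lie in a narrow band, and PBS replicate 5 sits far below the rest for Loxl2, Loxl4 and the 3 Plod genes.

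Outside PBS replicate 5, Plod1 and Plod3 varied least of the 8 members, and Plod2 varied more than Loxl2. Plod1, which hydroxylates the collagen helix, had 42.4 CPM in that library and 121 to 210 CPM in the other 23. Group medians were 155 (PBS), 172 (GEM), 165 (IGEL) and 161 CPM (LIGEL). The log2 differences from PBS were 0.31 ± 0.21 in GEM, 0.18 ± 0.21 in IGEL and 0.22 ± 0.21 in LIGEL (edgeR adjusted p = 0.804, 0.678 and 0.566). With PBS replicate 5 left out they were 0.12, -0.01 and 0.03.

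Plod2, the telopeptide lysyl hydroxylase, had 30.6 to 167 CPM in PBS (median 124), 99.9 to 196 in GEM (median 155), 87.9 to 197 in IGEL (median 148) and 117 to 176 in LIGEL (median 125). The lowest library was PBS replicate 5 and the highest were IGEL replicate 1 and GEM replicate 1. All groups overlapped, with log2 differences from PBS of 0.41 ± 0.26 in GEM, 0.33 ± 0.26 in IGEL and 0.27 ± 0.26 in LIGEL (edgeR adjusted p = 0.804, 0.528 and 0.569), which came down to 0.21, 0.14 and 0.08 without PBS replicate 5.

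Plod3, which also glycosylates hydroxylysine, had 48.6 CPM in PBS replicate 5 and 131 to 179 CPM everywhere else. Its group medians were 154 (PBS), 157 (GEM), 154 (IGEL) and 162 CPM (LIGEL). The log2 differences from PBS of 0.17 to 0.21, each with an SE of 0.18, were 0.03, 0.00 and 0.04 without PBS replicate 5, with an SE of 0.08. PBS replicate 5 thus had 15.4% of the median level of the other 23 libraries for Loxl2, 12.9% for Loxl4, 33.5% for Loxl3, 26.4% for Plod1, 22.97% for Plod2 and 30.5% for Plod3, but 52.0% for Lox and 75.1% for Loxl1.

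Across the 6 pairs of groups, 0 of 8 members passed an adjusted p of 0.05 in any, against 0% of all 19253 genes in each pair. At an unadjusted p under 0.05, edgeR called 0 members and 926 genes (4.81%) in GEM against PBS. It called 1 member, Loxl4, and 2896 genes (15%) in IGEL against PBS, and 1 member, Lox, and 3945 genes (20.5%) in LIGEL against PBS. With DESeq2 the members called stayed at 0, while that test called 0, 85 and 1229 genes in these 3 comparisons. In LIGEL against PBS 6 of the 8 members were higher, with a median log2 fold change of 0.24, beside -0.03 for all genes. With PBS replicate 5 left out 6 were still higher, but the median was 0.06. Leaving out PBS replicate 5, edgeR called 146 genes (0.758%) in LIGEL against PBS and 0 in the other comparisons with PBS, and 0 of the 8 members in each.

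Marker levels were also compared between the groups. All 17 acinar markers were lower than in PBS in each treated group (median log2 fold changes of -1.76 in GEM, -2.44 in IGEL and -3.09 in LIGEL), and once PBS replicate 5 was left out 16, 13 and 9 of them were higher. Their summed level ran from 2818 to 680100 CPM in PBS and from 124 to 73190 CPM in LIGEL. With the acinar share of each library as a covariate, the LIGEL difference was -0.79 for Lox, 0.39 for Loxl2 and 0.44 for Loxl4, each smaller in size than in the fit of all libraries. Of 8 epithelial markers 5 were lower in LIGEL (median -1.04). Their summed level went the other way by its median, 865 CPM in PBS (788 to 1874) and 1035 CPM in LIGEL (886 to 1116). The same comparison had 7 of 7 islet markers lower (median -2.99, and -1.57 without PBS replicate 5), 5 of 6 endothelial (-0.56, and -0.20 without it), 5 of 7 macrophage (-0.02, and -0.18 without it) and 5 of 5 smooth muscle and pericyte markers (-1.04), while 6 of 6 T cell markers (0.61) and 2 of the 3 muscle markers tested (0.25) were higher. None of these markers passed the adjusted threshold, and their part in the enzymes' levels was not tested.

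**Figure D2:**
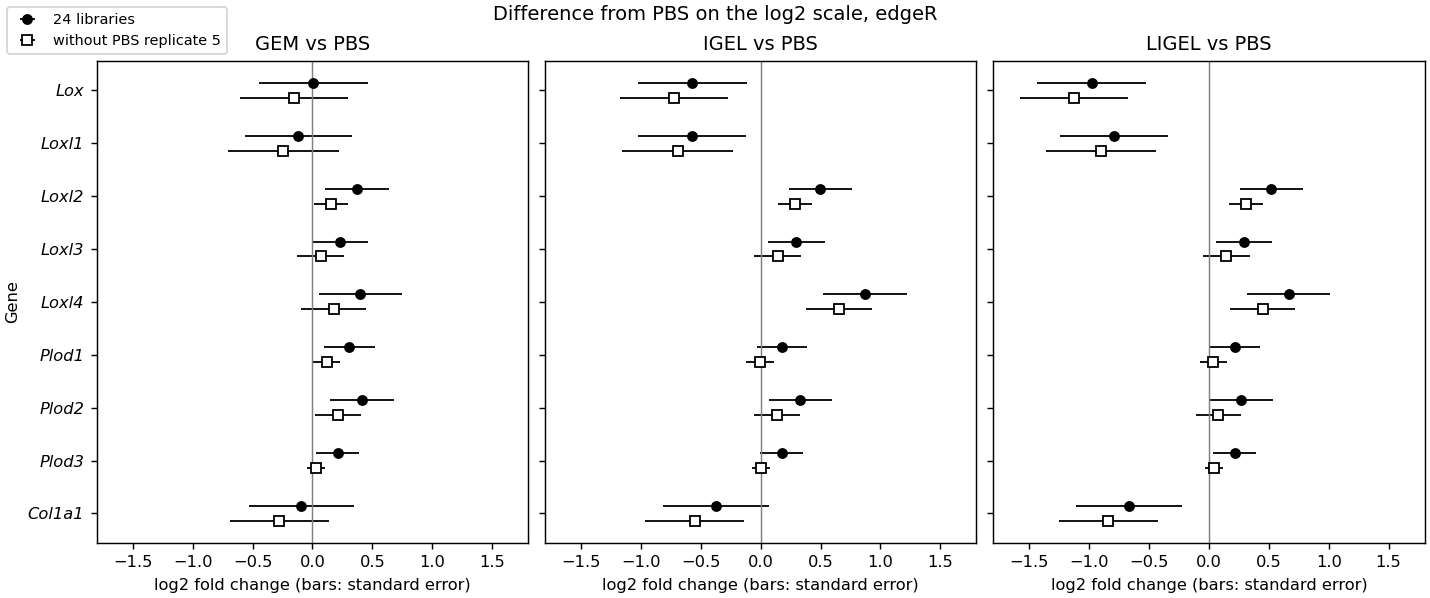
Difference of each treated group from PBS on the log2 scale with its standard error, for the 8 enzymes and Col1a1, from all 24 libraries (filled) and without PBS replicate 5 (open). Lox and Loxl1 lie on the side of Col1a1 in IGEL and LIGEL, and the Plod genes lie nearer 0 when PBS replicate 5 is left out; no difference passed the adjusted threshold.

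Relative to collagen, each enzyme was set against the Col1a1 count of the same library. Per 1000 Col1a1 counts, the mean for Lox was 24.5 ± 10.7 (PBS), 26.2 ± 9.497 (GEM), 21.2 ± 4.68 (IGEL) and 19.1 ± 6.59 (LIGEL; SD, n = 6). Loxl1 had 18.98 ± 6.31, 16.8 ± 2.46, 14.3 ± 3.16 and 15.8 ± 3.08 counts in the same order. Over the 24 libraries both ratios varied less than the levels did, and that of Loxl1 ran from 10.4 to 31.2 counts per 1000. The log2 differences from PBS were smaller in size for the ratios than for the levels in IGEL and LIGEL, but not in GEM. There they were 0.10 for the Lox ratio and -0.17 for the Loxl1 ratio, against 0.01 and -0.12 for the levels. The log2 difference of the Lox ratio between LIGEL and PBS was -0.36 ± 0.43 and that of the Loxl1 ratio -0.27 ± 0.40. For Lox it was -0.14 without PBS replicate 6. For Loxl1 it was -0.068 without PBS replicate 5, whose 31.2 counts per 1000 lay above the other PBS libraries (14.2 to 19.8; mean 16.5 ± 2.25, n = 5).

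The ratio of Loxl2 to Col1a1 had a wider range, from 13.2 counts per 1000 in PBS replicate 1 to 221 in IGEL replicate 1. These libraries had the highest and the lowest Col1a1 level, 16950 and 1565 CPM, while Loxl2 itself had 224 and 347 CPM there. The medians were 35.7 (PBS), 54.0 (GEM), 53.3 (IGEL) and 72.1 (LIGEL), with log2 differences from PBS of 0.94 ± 0.51 in IGEL and 0.88 ± 0.51 in LIGEL. Without IGEL replicate 1 the IGEL difference of Loxl2 was 0.375. For Loxl4 the medians were 6.35, 8.76, 10.48 and 13.1 counts per 1000, and the log2 difference of IGEL from PBS was 1.49 ± 0.57 (edgeR adjusted p = 0.308), which became 0.593 without IGEL replicate 1, the library with 70.1 counts per 1000. The libraries overlapped between groups for both. The test relative to Col1a1 called 0 of 8 members and 0% of 19252 genes in each of the 6 pairs of groups; at an unadjusted p under 0.05 it called 2254, 1923 and 2026 genes in GEM, IGEL and LIGEL against PBS, with Loxl4 in IGEL the only member among them.

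Within the lysyl oxidase family the balance was described as each member's share of the 5 levels per length. Loxl2 held 31.8 ± 12.5% (PBS), 36.0 ± 10.01% (GEM), 41.8 ± 9.44% (IGEL) and 45.4 ± 6.20% (LIGEL; SD, n = 6). Lox held 22.4 ± 9.56%, 21.9 ± 6.53%, 15.6 ± 5.62% and 12.9 ± 4.91%, and Loxl1 25.9 ± 9.85%, 21.6 ± 6.94%, 16.6 ± 8.25% and 15.8 ± 5.06%. The mean share of Loxl2 was below that of Lox and Loxl1 combined in PBS and GEM and above it in IGEL and LIGEL. The PBS means leaned on replicates 1 and 5. Loxl2 held 16.3% and 17.4% there, against 32.1 to 44.9% in the other PBS libraries. Lox held 37.8% and 25.9% in these replicates, against 11.5 to 23.5%, and Loxl1 36.1% and 39.2%, against 15.6 to 24.9%. The ratio of Loxl2 to Lox per length had medians of 1.63 in PBS (0.431 to 3.92), 1.65 in GEM (0.869 to 3.38), 2.58 in IGEL (1.47 to 9.21) and 3.58 in LIGEL (2.14 to 8.41). All groups overlapped, and the pair was chosen after its values were seen, so no test is given. The 3 lysyl hydroxylases had similar shares in the 4 groups: Plod1 27.5 to 28.5%, Plod2 28.9 to 31.8% and Plod3 39.7 to 42.8% as group means. Single libraries ran from 25.0 to 32.8% for Plod1, 21.9 to 37.4% for Plod2 and 35.3 to 47.4% for Plod3.

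**Figure D3:**
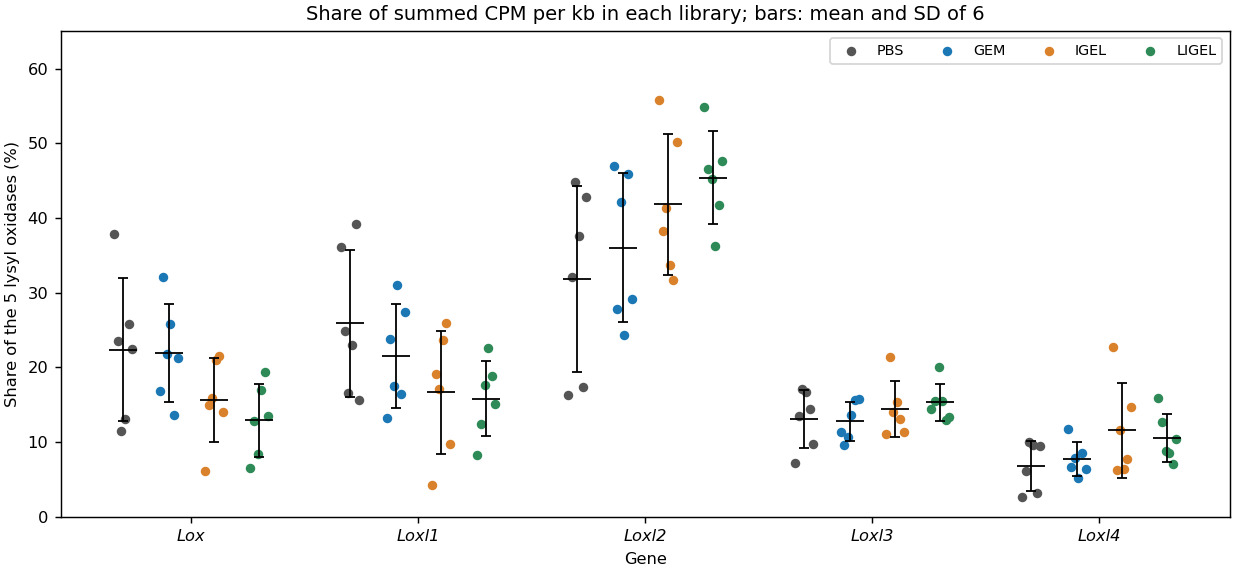
Share of each lysyl oxidase in the summed CPM per kb of the 5, by library and group, with mean and SD of 6. The mean share of Loxl2 goes from 31.8% in PBS to 45.4% in LIGEL and that of Lox from 22.4% to 12.9%, with overlapping libraries. PBS replicates 1 and 5 have the lowest Loxl2 and the highest Lox shares of their group.

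The members were then followed across tumours, regardless of group, by their correlation with Col1a1 in log2 CPM. Over 24 libraries, Pearson's r was 0.921 for Loxl1, 0.817 for Lox and 0.678 for Loxl3, with Spearman's rho of 0.915, 0.756 and 0.682 (permutation test, adjusted p = 0.000693, 0.000693 and 0.00607 for r and 0.00113, 0.00255 and 0.00931 for rho over 19252 genes). The unadjusted p of 1e-05 for Loxl1 and Lox is the smallest that 100000 permutations can give. These 3 of 8 members passed, against 15.2% of all genes. Without the 2 libraries farthest from the median of Col1a1, PBS replicate 1 and IGEL replicate 1, r was 0.870, 0.688 and 0.770 and all 3 still passed. The other 5 members did not pass: r was 0.131 for Loxl2 (rho -0.431), -0.088 for Loxl4 (rho -0.425), 0.019 for Plod2 (rho -0.352), 0.266 for Plod1 (rho -0.125) and 0.346 for Plod3 (rho 0.046).

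For Loxl2, Loxl4 and Plod2 the value of r rested on PBS replicate 5. Without it, over 23 libraries, r with Col1a1 was -0.565 for Loxl2 (permutation adjusted p = 0.0150), -0.672 for Loxl4 (0.00235) and -0.545 for Plod2 (0.0216), with rho of -0.606, -0.597 and -0.514. Lox (0.812), Loxl1 (0.956) and Loxl3 (0.626) kept their positive values, and Plod1 (-0.184) and Plod3 (-0.028) did not pass. That makes 6 of 8 members, against 40.3% of all genes, so passing is common here, and the members that passed differed in sign. As deviations from group means, a setting added after the data were seen, r was -0.492, -0.636 and -0.608 for Loxl2, Loxl4 and Plod2, and each passed. Within the 17 of these libraries whose columns are not named A1 to A3, also added later, it was -0.441, -0.460 and -0.362, and none of the 3 passed. Loxl3 (0.569, permutation adjusted p = 0.0555) did not pass there either, while Lox and Loxl1 did. Within the 6 libraries named A1 to A3, r was -0.607, -0.930 and -0.585 for Loxl2, Loxl4 and Plod2. There it was 0.914 for Lox and 0.977 for Loxl1. No gene of the 5 passed the adjusted exact permutation test. With 6 libraries that test has 720 orderings, and Loxl1 at an unadjusted p of 0.00278 had an adjusted p of 0.171. It could hardly pass any gene, so not passing says little about these values.

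**Figure D4:**
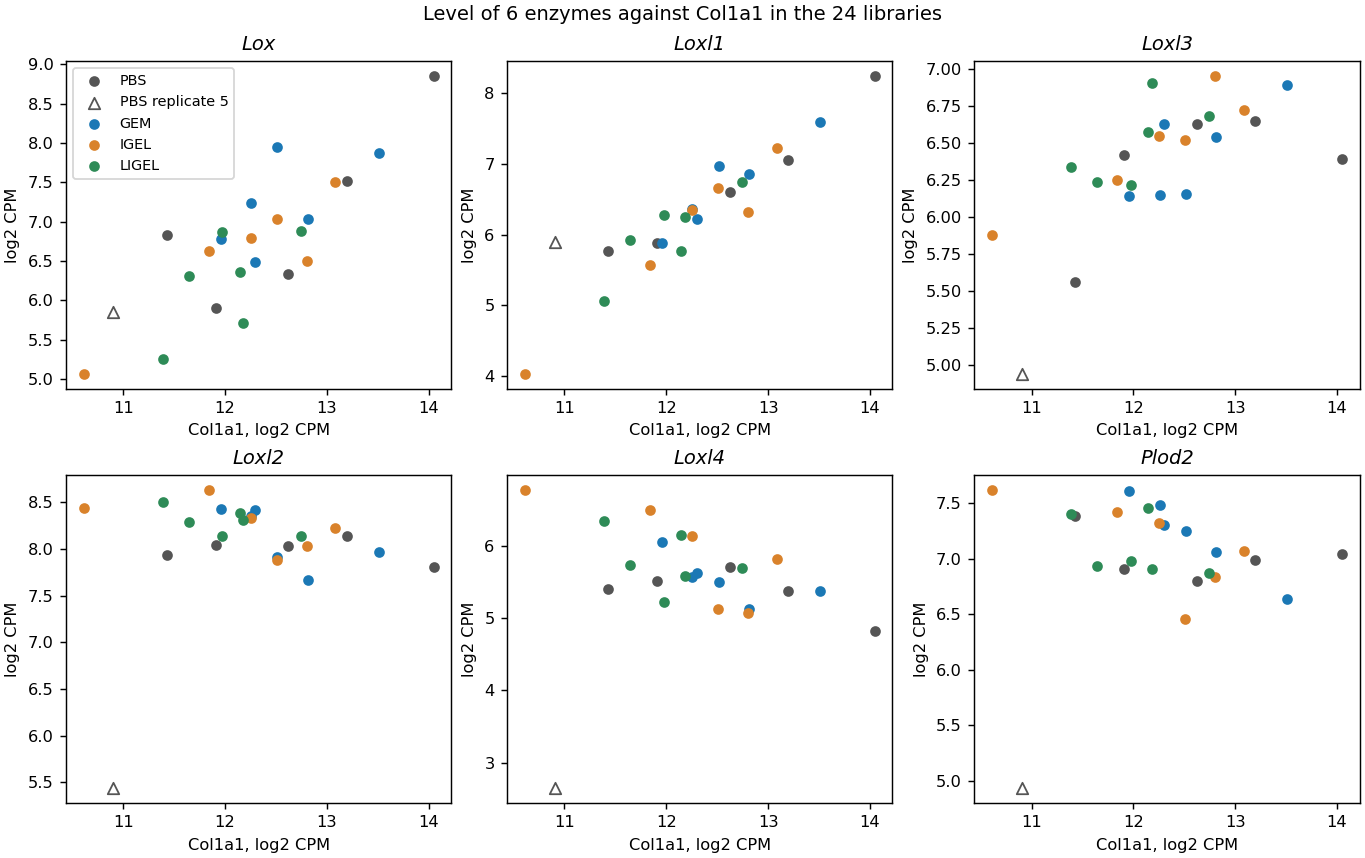
Level of 6 enzymes (y axis, log2 CPM) against Col1a1 (x axis, log2 CPM) in the 24 libraries, coloured by group, with PBS replicate 5 as an open triangle. Lox, Loxl1 and Loxl3 climb with Col1a1; Loxl2, Loxl4 and Plod2 slope down once the triangle is set aside.

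The members were also correlated with each other over the 23 libraries. The correlation was 0.880 between Lox and Loxl1, 0.826 between Loxl2 and Loxl4, 0.654 between Loxl4 and Plod2 and 0.603 between Loxl2 and Plod2. Plod1, which did not pass with Col1a1, went with Loxl2 (0.606), Loxl4 (0.622) and Plod2 (0.570) as closely, and with Plod3 at 0.696. Negative values were found for Loxl1 with Loxl4 (-0.746), Loxl2 (-0.641) and Plod2 (-0.564) and for Loxl3 with Plod2 (-0.605). Other pairs were weak: Lox had 0.112 with Loxl3 and -0.252 with Plod2, and Loxl2 had -0.122 with Loxl3. With group means removed, the Lox to Loxl1 value was 0.871 and the Loxl2 to Loxl4 value 0.796. In the 17 libraries not named A1 to A3 these were 0.849 and 0.828, while Loxl4 and Plod2 had 0.491, Loxl2 and Plod2 0.466, Loxl1 and Loxl4 -0.513 and Loxl1 and Plod2 -0.366. These correlations are descriptions over libraries that share their scaling, and no test is given.

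**Figure D5:**
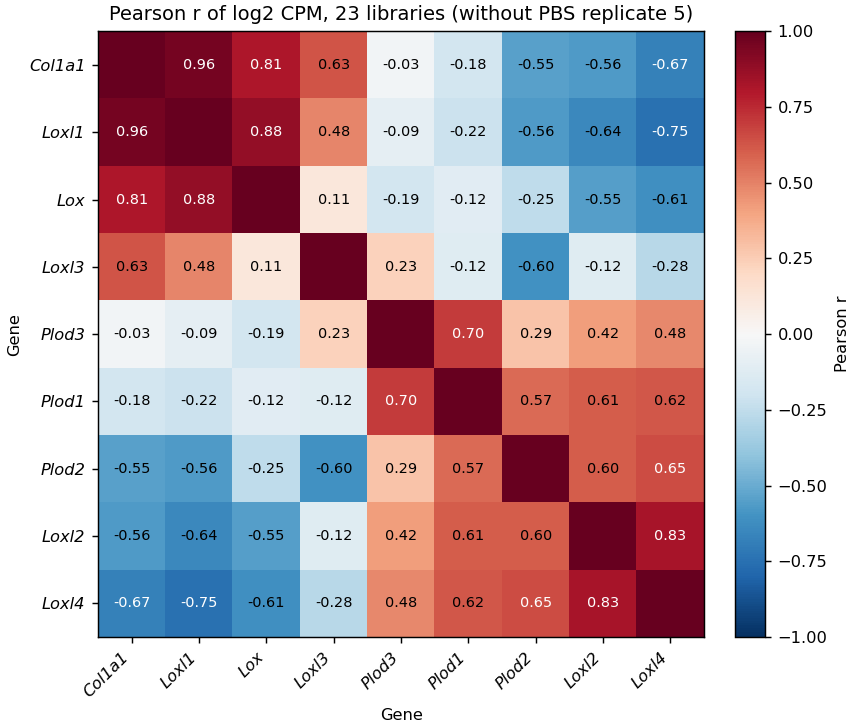
Pearson r of log2 CPM for every pair of the 8 enzymes and Col1a1 over 23 libraries, without PBS replicate 5; red is positive and blue negative. Loxl1 and Lox form a block with Col1a1, while Loxl2, Loxl4 and Plod2 form another that is negative with it.

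The genes most like each member over the 24 libraries were taken 3 to a member. For Lox they were Cthrc1, a secreted collagen triple helix repeat protein (r = 0.933), Inava (0.931) and Medag (0.925). For Loxl1 they were Cdh11, a cadherin of mesenchymal cells (0.981), Fbn1, the fibrillin of elastic microfibrils (0.976), and Cpxm1 (0.974). For Loxl3 they were Kank2 (0.942), Scarf2 (0.915) and Lrrk1 (0.913).

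For Plod2 the nearest were P4ha1, a prolyl 4-hydroxylase subunit that also modifies procollagen (0.957), Pdpn (0.956) and Slc41a2 (0.952). Without PBS replicate 5 the nearest to Plod2 became Bhlhe40 (0.957), the prolyl hydroxylase subunit P4ha2 (0.921) and Egln1 (0.915), which hydroxylates hypoxia-inducible factor; these 3 were named after the values were seen. Loxl2 was nearest to Msn, a linker of actin to the membrane (0.986), Myof (0.982) and the laminin chain Lamc1 (0.979), and Loxl4 to Dynap (0.970), Dip2a (0.964) and Src (0.961). Plod1 was nearest to Cyfip1 (0.968), Prkcsh (0.963) and Xpnpep1 (0.958). Plod3 was nearest to Capzb (0.978), Serpinh1, the collagen chaperone HSP47 (0.972), and Arpc1b (0.971). Leaving out PBS replicate 5 lowered these values most for Plod1 and Plod3: r was then 0.631 for Plod3 with Serpinh1 and 0.764 for Plod1 with Prkcsh, against 0.888 for Plod2 with P4ha1 and 0.909 for Loxl2 with Msn.

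Over the 23 libraries, fibroblast and elastic fibre genes mostly went with Lox and Loxl1 and against Loxl2, Loxl4 and Plod2. Not every list split in this way. The 15 TGF-beta genes had a median r of 0.268 with Lox, -0.014 with Loxl1 and 0.294 with Loxl2. The 7 fibroblast markers include Col1a1 itself. With Loxl1 all 7 fibroblast markers had a positive r (median 0.920), and with Lox all 7 (median 0.812). With Loxl2, Loxl4 and Plod2 all 7 had a negative r, with medians of -0.608, -0.690 and -0.505. Another list, of 12 fibroblast genes, was less uniform. Of these 12, 10 were positive with Lox and 10 with Loxl1. With Loxl2, Loxl4 and Plod2, 2, 2 and 3 were positive, and the highest r was 0.73, 0.828 and 0.864. The list of 13 elastic fibre genes includes that of elastin, a substrate of lysyl oxidases. Of these 13 genes, 12 were positive with Loxl1 (median 0.905) and 12 with Lox (median 0.768). With Loxl2, Loxl4 and Plod2, 1 each was positive. Collagen genes other than Col1a1 were mixed. Of 13 fibrillar and fibril-associated collagens, 10 were positive with Lox (median 0.812) and 10 with Loxl1 (median 0.849). With Loxl2, Loxl4 and Plod2, 3, 3 and 2 were positive, and the highest r was 0.833, 0.876 and 0.788.

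Hypoxia genes, a list of 18 genes of the hypoxia response that includes Slc2a1, Pdk1 and Car9, gave the reverse. All 18 had a positive r with Plod2 (median 0.830), Loxl4 (0.766), Loxl2 (0.672) and Plod1 (0.499), and 17 with Plod3 (0.276). With Lox 2 of 18 were positive (median -0.566), and 0 with Loxl1 (-0.766) and Loxl3 (-0.571). Over all genes the median r with a member lay between -0.044 (Plod1) and 0.025 (Lox). P4ha1 is in both the hypoxia and the collagen hydroxylation list. Lox, although a known hypoxia target, had the opposite sign from Plod2 for nearly the whole list.

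Other markers moved along with these enzymes. The 17 acinar markers were negative with Loxl2 (median -0.797), Loxl4 (-0.768) and Plod2 (-0.745) and positive with Loxl1 (0.681) and Lox (0.463) even without PBS replicate 5. The 8 epithelial markers were mixed: with Lox, r was 0.906 for Cdh1, 0.901 for Krt7 and 0.850 for Epcam but -0.268 for Krt8, while with Plod2 it was 0.852 for Sox9 and 0.781 for Krt8 but -0.425 for Cdh1. Macrophage markers were positive with Loxl1 in 7 of 7 cases (median 0.743) and with Loxl4 in 0 of 7 (median -0.555). Which cells made each enzyme was not tested.

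The surrounding pathway was read from lists of known genes, and 0 genes of any list passed in the comparisons with PBS. In LIGEL against PBS, 11 of 13 elastic fibre genes were lower, with a median log2 fold change of -1.18 beside -0.03 for all genes and 9 of them at an unadjusted p under 0.05. The smallest p was that of Efemp1, a fibulin, at -2.65 ± 0.77 (2.22 ± 1.59 CPM against 13.9 ± 15.4 in PBS; edgeR adjusted p = 0.124). Of 13 fibrillar and fibril-associated collagens 10 were lower (median -0.67), with the smallest p for Col14a1 at -1.72 ± 0.60 (edgeR adjusted p = 0.1402). In the list on activation of lysyl oxidases, 6 of 11 were lower (median -0.18, and -0.04 without PBS replicate 5), led by Postn, periostin, which assists proteolytic activation of LOX, at -1.19 ± 0.44 (edgeR adjusted p = 0.156). Of 8 copper supply genes 6 were lower (median -0.32), or 7 without PBS replicate 5 (median -0.09), led by the barely detected copper pump Atp7b at -2.60 ± 0.69, with 0.330 ± 0.214 CPM in LIGEL.

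The lists that belong with the hydroxylases follow. Of 17 genes of procollagen hydroxylation, glycosylation and folding 10 were higher in LIGEL than in PBS (median 0.01), but 5 without PBS replicate 5 (median -0.04). Ppib had the smallest p, at -0.47 ± 0.23, and came near 0 without PBS replicate 5. In IGEL 11 of the 17 were higher (median 0.05), or 8 without that library, led by P4ha1 at 0.70 ± 0.33 (edgeR adjusted p = 0.325), and in GEM 9 (median 0.00), led by P4ha2 at 0.62 ± 0.32 (0.804). Of 18 hypoxia genes 17 were higher in each treated group, with medians of 0.48 in GEM, 0.52 in IGEL and 0.50 in LIGEL; Pfkfb4 had 46.6 ± 12.2 CPM in LIGEL against 28.1 ± 9.51 in PBS (0.73 ± 0.24, edgeR adjusted p = 0.131). Without PBS replicate 5, 17, 16 and 16 of these 18 were higher, with medians of 0.37, 0.43 and 0.44. Col5a3 was the fibrillar collagen with the smallest p in IGEL, where it had 444 ± 252 CPM against 222 ± 105 in PBS (edgeR adjusted p = 0.306), and in GEM (0.77 ± 0.40, 0.804). Of 4 other crosslinkers tested, 3 were higher in LIGEL (median 0.36, and 0.18 without PBS replicate 5); Pxdn, which crosslinks collagen IV, differed by 0.45 ± 0.27 in LIGEL (edgeR adjusted p = 0.338) and by 0.23 ± 0.13 without that library.

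In the remaining lists, of 11 basement membrane and beaded collagens 8 were lower in LIGEL than in PBS (median -0.42), led by the low-level Col4a4 at -1.47 ± 0.52, which was -0.98 without PBS replicate 5. Of 12 fibroblast genes 9 were lower (median -0.47), led by Dcn, decorin, at -1.79 ± 0.62 (36.7 ± 16.8 CPM against 127 ± 131 in PBS). Of 15 TGF-beta genes 9 were higher (median 0.16), or 8 without PBS replicate 5 (median 0.04), with the smallest p for Tgfb2 at -1.50 ± 0.52. Of 10 matrix stiffness genes 5 were higher (median -0.01), or 3 without PBS replicate 5 (median -0.15), with the smallest p for Ctgf at -0.81 ± 0.36. In IGEL the smallest p in these last 2 lists belonged to Smad7 (0.36 ± 0.15) and Crim1 (0.43 ± 0.17). In GEM, Crim1 differed by 0.21 ± 0.17, or 0.06 without PBS replicate 5.

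The 6 libraries with column names A1 to A3 differed from the others of their groups in some of the same genes. In a fit without PBS replicate 5 that allowed for group, edgeR called 434 genes (2.25%) between them, and 1 of the 8 members, Plod2, at 0.48 ± 0.13 on the log2 scale (178 against 129 CPM in the other treated libraries; adjusted p = 0.0465). Loxl4 differed by 0.60 ± 0.19 (edgeR adjusted p = 0.0920), Loxl1 by -1.003 ± 0.39 (0.158), Loxl3 by -0.42 ± 0.15 (0.124) and Col1a1 by -0.80 ± 0.34 (0.191). None of the 6 is a PBS library, so against PBS this split is partly mixed with treatment. With these 6 left out, the log2 difference of LIGEL from PBS was -0.81 for Lox, -0.56 for Loxl1, 0.43 for Loxl2 and 0.39 for Loxl4.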

How the data were processed

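The deposited table holds raw read counts per gene for 24 bulk libraries. The labels' protocols describe Trizol extraction from tissue frozen on dry ice and quality control on an Agilent bioanalyzer. Alignment and counting tools named in the submitters' processing notes are HISAT2, Subread and featureCounts, without versions, and the build is mm10. The table was used as deposited, with 0 unmatched columns. Samples were grouped by their labels (4 groups of 6). Genes were kept by filterByExpr (minimum count 10, minimum total 15), which removed 0.0666% of counts. All 24 libraries entered 1 edgeR 4.0.16 model (TMM factors, robust quasi-likelihood F test, limma 3.58.1, R 4.3.3), with 6 contrasts and Benjamini-Hochberg adjustment over all genes at 0.05. Levels are CPM on TMM-scaled totals, and log2 CPM used a prior count of 2. Ratios to collagen came from a second fit with each library's Col1a1 count as its size. Correlations used 100000 permutations in scipy 1.17.1 and numpy 2.4.6 (Python 3.11.15), two-sided, exact for 6 libraries. DESeq2 1.42.0 was an alternative, beside other scalings and filters, a replicate block and libraries left out. The count models were tested on simulated data.

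Members, the 11 pathway lists and the 9 marker lists were chosen with earlier results of these data known. Named genes are the 8 members, Col1a1, the 3 genes most correlated with each member over 24 libraries, and in each pathway list the gene with the smallest p per comparison with PBS. Further names were chosen after their values were seen: Slc2a1, Pdk1, Car9, the epithelial markers and the nearest genes of Plod2 over 23 libraries. Some genes that the naming rule gives are not reported here.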

Additional observations from a re-analysis of the deposited data

Results flagged for a closer look

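Within each group of 6, a library was singled out when its distance to the nearest other library was large against the group's range (Dixon's criterion at 95%). Of 68 groups of values tested 7 were singled out, and chance alone gives about 1 in 20. PBS replicate 5 accounted for 5 of the 7, each time as the lowest library. Its log2 CPM was 5.44 for Loxl2, 2.65 for Loxl4, 5.41 for Plod1, 4.94 for Plod2 and 5.61 for Plod3. This is the library in which acinar genes took 37.2% of the counts, and their part in these low values was not tested. The other 2 were ratios to Col1a1: the log2 ratio of Lox was -6.3 in IGEL replicate 2, and that of Loxl1 was -5.54 in GEM replicate 2.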

How the results depend on the processing

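Members called stayed at 0 in all 132 combinations of an alternative setting with a pair of groups, and in all 96 such combinations relative to Col1a1. Genes called in LIGEL against PBS were 1229 with DESeq2, 3 with acinar share as covariate and 0 to 146 with 1 library left out (146 without PBS replicate 5, 2 without PBS replicate 4), and DESeq2 called 85 in IGEL against PBS. Relative to Col1a1 with no expression filter they were 1 in IGEL and 160 in LIGEL, and with 1 library left out 0 to 333 in LIGEL (333 without PBS replicate 3, 215 without PBS replicate 2, 102 without PBS replicate 4). The replicate numbers did not pair the samples (median r of same-numbered deviations -0.061, 6 of 24 best with their own number), and with a replicate block 0 members were called and the LIGEL difference of Lox was -0.91 (edgeR adjusted p = 0.373).

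Signs changed mostly for small differences, and the cause was not tested. In GEM against PBS, Lox was -0.004 with RLE factors, -0.004 with DESeq2, -0.077 without the A1 to A3 libraries, -0.241 without these and PBS replicate 5, and -0.163 to 0.695 with 1 library left out. Loxl1 was 0.11 without the A1 to A3 libraries, 0.375 with a term for them, 0.089 with acinar share as covariate and -0.364 to 0.427 with 1 left out. Without PBS replicate 5 and the A1 to A3 libraries, Loxl4 was -0.006 and Plod2 -0.02 in GEM, Plod1 -0.035 and Plod3 -0.013 in IGEL, and Plod1 -0.012 and Plod2 -0.108 in LIGEL. With 1 left out, IGEL gave -0.005 to 0.242 for Plod1 and -0.784 to 0.116 for Lox.

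Relative to Col1a1 in GEM, Plod3 was 0.059 with 3 collagens as reference and Loxl3 -0.023 with the replicate block. Without the A1 to A3 libraries Lox was -0.383, Loxl2 -0.174, Loxl3 -0.019, Loxl4 -0.298, Plod1 -0.312 and Plod2 -0.332. With 1 left out the ranges were -0.092 to 0.315 for Lox, -0.257 to 0.024 for Loxl1, -0.172 to 0.172 for Loxl3, -0.064 to 0.569 for Loxl4, -0.136 to 0.393 for Plod1, -0.017 to 0.719 for Plod2 and -0.242 to 0.235 for Plod3. In IGEL, Plod3 was -0.069 without the A1 to A3 libraries and -0.069 to 0.762 with 1 left out, and Lox -0.34 to 0.009.

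The correlation of Loxl4 with Col1a1 was 0.177 with no composition factor, 0.21 without the 2 farthest libraries and 0.222 within the 18 libraries not named A1 to A3. Without PBS replicate 5 the values were -0.565 for Loxl2, -0.672 for Loxl4, -0.184 for Plod1, -0.545 for Plod2 and -0.028 for Plod3. Within the 6 A1 to A3 libraries they were 0.914 for Lox, 0.977 for Loxl1, -0.607 for Loxl2, 0.472 for Loxl3, -0.04 for Plod1, -0.585 for Plod2 and -0.127 for Plod3. Both added settings leave out PBS replicate 5. Within the 17 others they were -0.441 for Loxl2, 0.569 for Loxl3, -0.027 for Plod1 and -0.362 for Plod2. As deviations from group means they were -0.492 for Loxl2, -0.636 for Loxl4, -0.25 for Plod1, -0.608 for Plod2 and -0.017 for Plod3.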
